A study of Mus musculus with 3 samples.

Results

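Immunoglobulin genes were followed in 3 RNA libraries made from mouse spleen T cells. The members were the rows of the deposited expression table whose gene biotype begins with IG_, which gave 66 of 17796 listed genes. They comprised 11 constant genes (7 heavy, 1 kappa, 3 lambda) and 55 variable (V) segments (23 heavy, 30 kappa, 2 lambda). Diversity and joining segments were not analysed here. The Old + Fumarate library came from C57BL/6 mice of 24 months given fumarate at 10 mg/kg, 3 times a week for 2 months. The Old library came from C57BL/6 mice of 24 months on the same course of vehicle, and the Young library from C57BL/6 mice of 2 months, labelled vehicle. The T cells of all 3 groups were cultured for 3 days on plate-bound antibody to CD3 (2 ug/ml) and CD28 (5 ug/ml) with interleukin 2 (100 IU/ml). How many animals went into a library is not stated in the labels.

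Immunoglobulins are the antigen receptors of B cells and, once secreted by plasma cells, antibodies. A heavy chain joins 1 rearranged V region to a constant region that sets the isotype. Naive B cells use the mu and delta constant genes, and class switching replaces them by a gamma, epsilon or alpha gene lying further along chromosome 12. Light chains come from the kappa locus on chromosome 6 or the lambda locus on chromosome 16, and each clone of B cells keeps its own pair of V segments. Mature T cells carry a different receptor, and unrearranged heavy constant regions can give transcripts that encode no antibody.

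The V segments that led each library are shown first, because they were different segments in the 3 libraries. Igkv5-39 led the kappa V segments of the Old library, Igkv10-96 those of Old + Fumarate and Igkv14-126 those of Young. Ighv1-55 led the heavy V segments of Old, Ighv5-17 those of Old + Fumarate and Ighv11-2 those of Young. Each sequence is the second exon (its last 300 bases for the heavy segments), read on the coding strand from the GENCODE M21 transcripts (build GRCm38), and the capitals run from the conserved cysteine codon, where the third complementarity-determining region opens, to the end of the exon. The positions are chr6:69900424-69900721 (minus strand) for Igkv5-39, chr6:68631963-68632260 (minus) for Igkv10-96, chr6:67896345-67896642 (plus) for Igkv14-126, chr12:115208095-115208394 (minus) for Ighv1-55, chr12:113859149-113859448 (minus) for Ighv5-17 and chr12:114048241-114048540 (minus) for Ighv11-2.
Igkv10-96: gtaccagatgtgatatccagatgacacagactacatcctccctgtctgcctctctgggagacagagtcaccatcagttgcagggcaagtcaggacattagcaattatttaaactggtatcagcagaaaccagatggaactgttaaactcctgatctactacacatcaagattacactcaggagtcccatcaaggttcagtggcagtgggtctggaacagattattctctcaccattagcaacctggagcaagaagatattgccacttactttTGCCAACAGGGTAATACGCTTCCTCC
Igkv5-39: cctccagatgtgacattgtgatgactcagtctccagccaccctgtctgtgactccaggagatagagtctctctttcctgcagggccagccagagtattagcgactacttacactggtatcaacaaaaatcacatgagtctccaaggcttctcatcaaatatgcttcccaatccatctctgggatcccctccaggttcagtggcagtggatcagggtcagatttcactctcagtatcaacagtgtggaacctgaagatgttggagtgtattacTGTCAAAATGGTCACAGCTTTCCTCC
Igkv14-126: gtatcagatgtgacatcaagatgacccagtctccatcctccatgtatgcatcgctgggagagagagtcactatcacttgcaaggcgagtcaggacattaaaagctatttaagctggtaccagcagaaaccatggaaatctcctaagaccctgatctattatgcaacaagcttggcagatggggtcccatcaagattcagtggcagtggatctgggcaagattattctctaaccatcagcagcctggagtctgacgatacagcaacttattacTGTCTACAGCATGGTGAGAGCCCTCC
Ighv5-17: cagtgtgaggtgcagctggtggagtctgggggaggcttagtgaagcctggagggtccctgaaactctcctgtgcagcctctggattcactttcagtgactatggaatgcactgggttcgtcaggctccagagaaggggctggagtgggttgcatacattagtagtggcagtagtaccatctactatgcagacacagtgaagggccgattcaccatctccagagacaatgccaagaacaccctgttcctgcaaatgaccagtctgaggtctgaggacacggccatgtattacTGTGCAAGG
Ighv1-55: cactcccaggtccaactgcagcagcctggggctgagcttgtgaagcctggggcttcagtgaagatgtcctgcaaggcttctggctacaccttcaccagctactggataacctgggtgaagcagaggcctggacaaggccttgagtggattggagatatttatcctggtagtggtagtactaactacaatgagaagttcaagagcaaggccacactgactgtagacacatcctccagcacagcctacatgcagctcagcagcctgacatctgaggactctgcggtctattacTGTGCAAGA
Ighv11-2: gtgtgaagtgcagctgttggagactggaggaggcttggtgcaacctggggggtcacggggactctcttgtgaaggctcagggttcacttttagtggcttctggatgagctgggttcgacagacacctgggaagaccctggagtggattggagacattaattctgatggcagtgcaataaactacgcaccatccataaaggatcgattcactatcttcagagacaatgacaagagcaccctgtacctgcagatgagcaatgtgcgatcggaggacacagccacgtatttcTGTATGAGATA

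The 4 gamma constant genes are told apart most easily by their hinge exons, which carry the cysteines that tie the heavy chains together and which are shown because the balance of these 4 genes differed between the libraries. The capitals mark the cysteine codons, which number 1 in Ighg3, 4 in Ighg1, 4 in Ighg2b and 3 in Ighg2c. The exons lie on the minus strand of GRCm38 at chr12:113360529-113360576, chr12:113329844-113329882, chr12:113307261-113307326 and chr12:113288263-113288325, in that order.
Ighg3: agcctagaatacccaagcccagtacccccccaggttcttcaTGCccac
Ighg1: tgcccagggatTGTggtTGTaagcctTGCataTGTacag
Ighg2b: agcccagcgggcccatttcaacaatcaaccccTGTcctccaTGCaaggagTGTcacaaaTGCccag
Ighg2c: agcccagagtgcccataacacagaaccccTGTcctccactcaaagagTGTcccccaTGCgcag
Over the whole transcripts, 5.49% of the 50-base words of Ighg2c also occur in Ighg2b, so reads can mostly be assigned to 1 of the 4. Sharing is wider among V segments: 48 of the 66 members share over 10% of their 50-base words with another immunoglobulin gene, and their values are uncertain to that extent.

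The table is named as raw counts but holds CPM (reads scaled to a common library total), and the worth of a single read put the depth at 13.9 M reads for Old + Fumarate, 17.3 M for Old and 41.0 M for Young. There is 1 library per group, so the differences come without an SD or a test, and each 95% interval covers counting error alone. A listed 0 allows up to 3 reads, which is 0.217 CPM in Old + Fumarate, 0.174 CPM in Old and 0.0732 CPM in Young. The labelled cell type was checked on 18 T cell identity genes, which were all present, at 55.7 CPM or more in Old + Fumarate, 44.5 CPM or more in Old and 64.7 CPM or more in Young. In bulk RNA such as this, fewer cells of a type and less RNA per cell cannot be told apart.

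Immunoglobulin transcripts were most abundant in the Old library. Summed over the 66 members, the level was 120.2 CPM (95% interval 114 to 126) in Old + Fumarate, 549 CPM (538 to 560) in Old and 144 CPM (141 to 148) in Young. The Old sum was 3.81 times the Young sum (3.69 to 3.93), and the Old + Fumarate sum was 4.57-fold lower than the Old sum (4.34 to 4.81). The summed level of Old + Fumarate was 0.834 times that of Young (0.789 to 0.880), but this rested on Ighm, the mu constant gene. Without Ighm the sums were 66.0 CPM in Old + Fumarate, 337 CPM in Old and 8.95 CPM in Young, and Old + Fumarate stood 7.38 times above Young (6.53 to 8.35). Old without Ighm was 37.6 times Young (33.8 to 41.9).

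A gene was counted as higher or lower when CPM + 1 differed at least 2-fold. A gene under 1 CPM in the library where it is higher cannot reach that limit. Among the members only Ighm, Igkc and Ighd reached 1 CPM in Young. No other member could be counted lower against Young, so the low counts there were largely set in advance. In Old against Young, 30 of the 66 members were higher and 0 lower, where 8.96% of all listed genes were higher and 1.71% lower. In Old + Fumarate against Old, 0 were higher and 21 lower, against 0.258% and 5.87% of all genes. In Old + Fumarate against Young, 9 were higher and 1 lower, against 3.99% and 1.95% of all genes. These counts need care, because a gene is listed only if it has at least 10 reads over the 3 libraries together. For 47 members, 45 of them V segments, fewer than 10 reads came from outside the Old library. Those members are listed only with the help of Old reads, which favours Old in their comparisons. Asking for at least 50 reads over the 2 libraries compared left 14, 14 and 5 members. Of these, 12 of 14 were higher and 0 lower in Old than in Young, against 9.7% and 2.16% of all genes with that many reads. In Old + Fumarate against Old 0 were higher and 12 of 14 lower (0.261% and 6.84% of all genes), and in Old + Fumarate against Young 4 of 5 were higher and 1 lower (4.22% and 2.53%). The Old library again supplied most of these reads in its comparisons, and the 3 comparisons share libraries with each other.

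The constant genes are less exposed to that filter, since 9 of the 11 had at least 10 reads without the Old library. In Old against Young 9 of 11 were higher, against 8.96% of all genes. In Old + Fumarate against Old 7 were lower, against 5.87% of all genes. In Old + Fumarate against Young 4 were higher and 1 lower, against 3.99% and 1.95%. Iglc1 and Iglc3 had 9 and 5 reads outside Old, so their listing needed some reads of Old, though not a high level there. Both were among the 9 counted higher in Old, and Iglc3 was among the 7. The median log2 difference of the 11 constant genes was 1.90 in Old against Young (0.04 over all genes). It was -1.40 in Old + Fumarate against Old (-0.04 over all genes) and 0.58 in Old + Fumarate against Young (0.00 over all genes).

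Ighm and Ighd, the isotypes of naive B cells, differed least between Old and Young. Ighm (chr12:113418558-113422730, minus strand) had 54.1 CPM in Old + Fumarate, 212 CPM in Old and 135 CPM in Young. It was the lone member at least 2-fold lower in Old + Fumarate than in Young, by 2.50-fold (2.31 to 2.70), while Old stood 1.57 times above Young (1.51 to 1.64). Ighd had 0.361 CPM in Old + Fumarate, 0.811 CPM in Old and 1.07 CPM in Young, so its order across the libraries was unlike that of every other constant gene. From 5, 14 and 44 reads, the Ighd ratio of Old over Young was 0.755 (0.382 to 1.40), an interval that holds 1. Between Old + Fumarate and Young, Ighd was 2.97-fold lower (1.18 to 9.61), short of the 2-fold limit on CPM + 1.

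The 4 gamma genes, which encode the IgG subclasses, were nearly absent from Young. Ighg2b had 7.36 CPM in Old + Fumarate, 74.1 CPM in Old and 0.0732 CPM (3 reads) in Young. Ighg2c, the gene that C57BL/6 mice carry in place of Ighg2a, had 9.02 CPM in Old + Fumarate, 16.7 CPM in Old and 0.0488 CPM (2 reads) in Young. Ighg1 had 2.89 CPM in Old + Fumarate, 17.7 CPM in Old and 0.415 CPM in Young. Ighg3 had 1.01 CPM in Old + Fumarate, 7.65 CPM in Old and 0.342 CPM in Young. All 4 thus had the same order, with Old highest and Young lowest. Their sum was 20.3 CPM in Old + Fumarate, 116 CPM in Old and 0.878 CPM in Young, which put Old at 132 times Young (95.1 to 189) and Old + Fumarate at 23.1 times Young.

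The gamma genes were not lower by a common factor in Old + Fumarate than in Old. Ighg2b was 10.1-fold lower (8.22 to 12.4), Ighg3 7.57-fold (4.35 to 14.2) and Ighg1 6.12-fold (4.39 to 8.74). Ighg2c was 1.85-fold lower (1.49 to 2.30), and its interval does not reach those of the other 3. The alpha gene Igha, used for mucosal antibody, had 0.794 CPM in Old + Fumarate, 3.01 CPM in Old and 0.0732 CPM in Young. It was 3.79-fold lower in Old + Fumarate than in Old (1.96 to 8.06), close to the 3.92-fold (3.63 to 4.25) of Ighm. The epsilon gene was not analysed here.

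**Figure D1:**
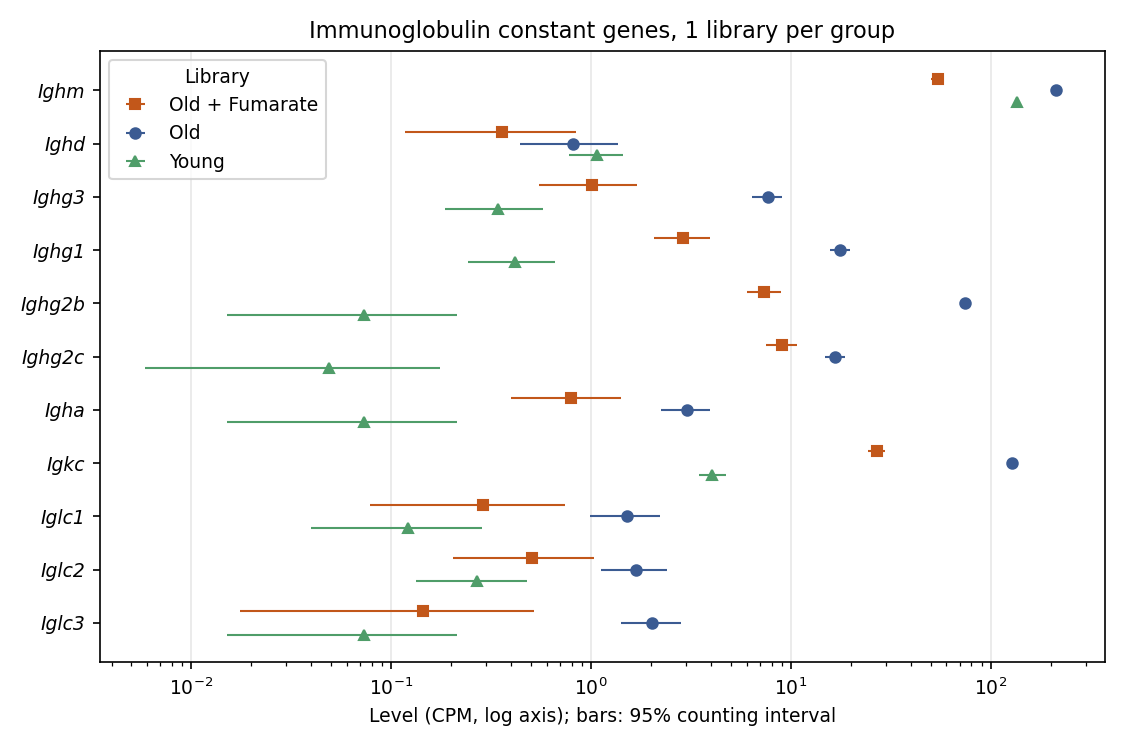
Level of each of the 11 constant genes in CPM (log axis) in the Old + Fumarate, Old and Young libraries, with heavy genes in the order of the locus, then light genes. Points are single libraries and bars are 95% counting intervals. Old is highest for every gene except Ighd, and Young is lowest for every gene except Ighm and Ighd.

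The isotype make-up of the heavy constant reads followed from these levels. Ighm took 71.6% of heavy constant CPM in Old + Fumarate (68.8 to 74.3), 63.9% in Old (62.7 to 65.2) and 98.5% in Young (98.2 to 98.8). The gamma genes together took 26.8% in Old + Fumarate, 34.9% in Old and 0.640% in Young. Within the gamma genes the leading subclass was different in each library. Ighg2c led in Old + Fumarate with 44.5% (38.6 to 50.5), against 14.4% in Old (12.9 to 15.98) and 5.56% in Young. Ighg2b led in Old with 63.8% (61.7 to 65.9), against 36.3% in Old + Fumarate (30.7 to 42.2) and 8.33% in Young. Ighg1 led in Young with 47.2% (30.4 to 64.5), from 17 of 36 reads, against 14.2% in Old + Fumarate and 15.2% in Old. Ighg1 thus had a like share in both aged libraries while the Ighg2b and Ighg2c shares changed places.

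Longer genes collect more reads, so levels of different genes were compared per kilobase (kb) of exon. Ighg2c then stood at 6.80 CPM per kb in Old + Fumarate against 2.75 for Ighg2b, and at 12.6 in Old against 27.7 for Ighg2b, so the order of the pair was the same as without the correction. Apart from Ighm, Ighd took 1.68% of heavy constant CPM in Old + Fumarate, 0.676% in Old and 53.0% in Young. The heavy constant reads of the Young library were therefore almost all of the 2 unswitched isotypes.

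**Figure D2:**
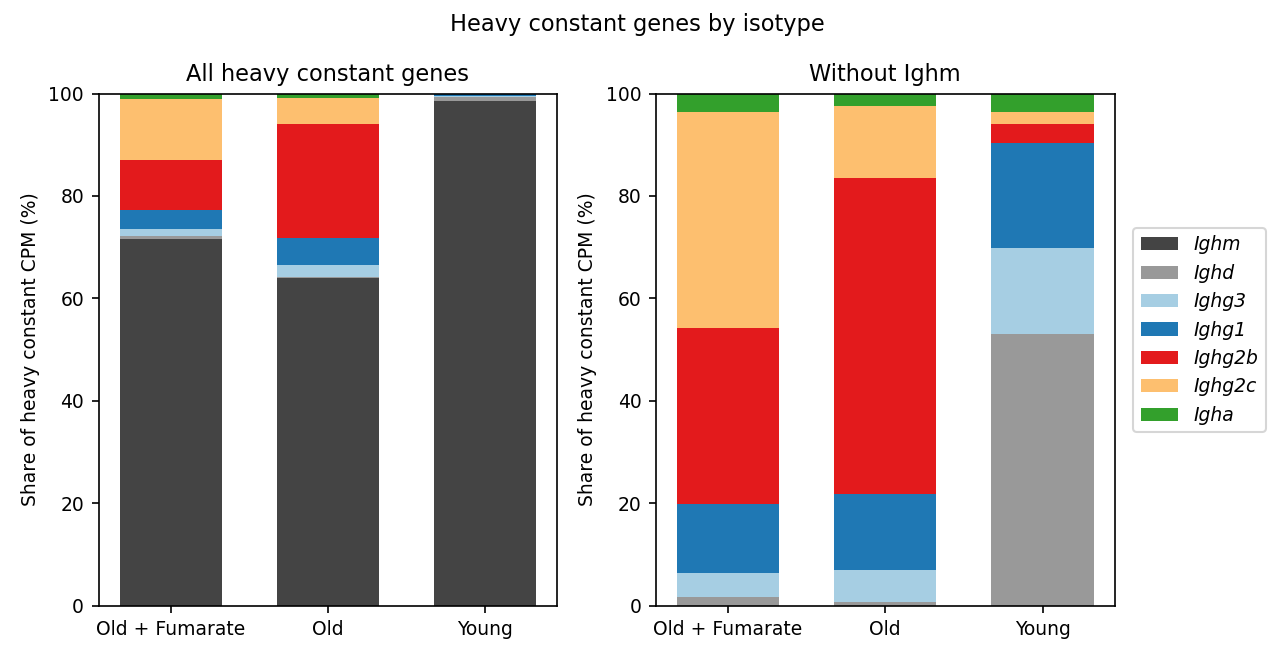
Share of heavy constant CPM (%, stacked to 100) taken by each isotype gene in Old + Fumarate, Old and Young, with Ighm (left panel) and without it (right panel). Without Ighm, Ighg2c is the largest part in Old + Fumarate (42.1%), Ighg2b in Old (61.8%) and Ighd in Young (53.0%).

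Igkc, the single kappa constant gene (chr6:70726435-70726966, plus strand), had 26.9 CPM in Old + Fumarate, 127 CPM in Old and 4.05 CPM in Young. Its exon overlaps the span of Gm30211 on the same strand, so reads of the pair may not be told apart. Whether it overlaps an exon of Gm30211 was not checked. Old was 31.4 times Young (26.8 to 37.0), and Old + Fumarate was 4.74-fold lower than Old (4.25 to 5.31) and 6.63 times Young (5.51 to 8.01). The balance of heavy to light chain was unlike in Young and the aged libraries. For 100 Ighm reads there were 49.6 Igkc reads in Old + Fumarate (43.7 to 56.2), 59.9 in Old (56.8 to 63.2) and 3.00 in Young (2.55 to 3.50). Per kb of exon, Igkc stood above Ighm in Old + Fumarate (50.5 against 28.7 CPM per kb) and in Old (239 against 113), and far below it in Young (7.61 against 71.7).

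V reads were also set against the constant reads of their own chain. For 100 heavy constant reads there were 6.88 heavy V reads in Old + Fumarate (5.34 to 8.74), 11.3 in Old (10.4 to 12.2) and 0.622 in Young (0.433 to 0.866). On the kappa side the ratio was alike, with 40.9 kappa V reads per 100 Igkc reads in Old + Fumarate (33.6 to 49.5), 33.02 in Old (30.3 to 35.9) and 30.7 in Young (22.0 to 42.3). Of the segments in these ratios, 20 of 23 heavy and 24 of 30 kappa had under 10 reads without the Old library, so the numerators favour Old. With the 3 heavy segments that had at least 10 reads without Old there were 3.44 heavy V reads per 100 in Old + Fumarate (2.39 to 4.79), 0.401 in Old (0.254 to 0.602) and 0.516 in Young (0.345 to 0.741). With the 6 such kappa segments there were 27.7 in Old + Fumarate (22.0 to 34.5), 15.6 in Old (13.9 to 17.5) and 16.9 in Young (10.9 to 25.3). The ratios of Old and Young thus differed by less than their counting intervals once the filter was turned round, a choice that favours the other 2 libraries, and the order of the libraries depended on which segments were counted.

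The 3 lambda constant genes were low in every library. Iglc1 had 0.289 CPM in Old + Fumarate, 1.51 CPM in Old and 0.122 CPM in Young. Iglc2 had 0.505 CPM in Old + Fumarate, 1.68 CPM in Old and 0.268 CPM in Young, and Iglc3 had 0.144 CPM (2 reads), 2.03 CPM and 0.0732 CPM (3 reads) in the same libraries. Lambda is the minor light chain of the mouse, and its share of light constant CPM was 3.38% in Old + Fumarate (1.81 to 5.70), 3.93% in Old (3.17 to 4.81) and 10.3% in Young (6.30 to 15.6). Iglc1, Iglc3 and the V segment Iglv1 overlap 2010309G21Rik on the opposite strand, and whether the reads were counted by strand is not stated.

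The V segments listed were a small part of those annotated: 23 of 113 heavy, 30 of 100 kappa and 2 of 3 lambda segments. Their summed level was 16.8 CPM in Old + Fumarate, 84.1 CPM in Old and 2.42 CPM in Young. Of the 55 segments, 48 were highest in Old, 6 in Old + Fumarate and 1 in Young. In Old + Fumarate 13 segments were listed at 0 and in Young 29, against 0 in Old, and 10 reads or more were found for 6 segments in Old + Fumarate, 47 in Old and 2 in Young. The 10 segments with at least 10 reads without the Old library summed to 10.6 CPM in Old + Fumarate, 25.4 CPM in Old and 1.61 CPM in Young. For these 10, Old + Fumarate was 2.39-fold lower than Old (1.98 to 2.91), and Old was 15.8 times Young (12.2 to 20.8). For all 55 the same values were 5.00-fold and 34.8 times, so the filter on reads weighs on the size of both differences.

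Heavy V reads in Old were led by segments of the Ighv1 family, the largest heavy family in the mouse. The 5 segments that follow had 0 to 3 reads outside Old and are in the table only through it, so their values describe the Old library and do not bear on how far it stood above the others. Ighv1-55 was listed at 0 in Old + Fumarate and in Young and had 7.59 CPM (131 reads) in Old. Ighv1-82 had 0.217 CPM (3 reads) in Old + Fumarate, 7.30 CPM (126 reads) in Old and 0 in Young. Ighv1-9 had 0.217 CPM (3 reads) in Old + Fumarate, 4.29 CPM (74 reads) in Old and 0 in Young. Ighv4-1 and Ighv8-8, of smaller families, had the same pattern. Ighv4-1 had 0.144 CPM (2 reads) in Old + Fumarate, 3.24 CPM (56 reads) in Old and 0 in Young, and Ighv8-8 had 31 reads in Old and 0 in both other libraries.

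Against this trend, Ighv5-17 was highest in Old + Fumarate. It had 1.23 CPM (17 reads) in Old + Fumarate, 0.116 CPM (2 reads) in Old and 0 in Young, a ratio of 10.6 in Old + Fumarate over Old (2.51 to 94.5). On CPM + 1 its log2 difference was 0.997, just under the 2-fold limit. Ighv5-17 is listed through the reads of Old + Fumarate, so both values favour that library. Ighv1-52 had 1.08 CPM (15 reads) in Old + Fumarate, 0.753 CPM (13 reads) in Old and 0.0244 CPM (1 read) in Young. Its ratio of Old + Fumarate over Old was 1.44 (0.638 to 3.28), an interval that holds 1, and 50.1% of its 50-base words also occur in Ighv1-61.

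Ighv11-2 had an order of its own, with 0.289 CPM (4 reads) in Old + Fumarate, 0.463 CPM (8 reads) in Old and 0.683 CPM (28 reads) in Young. It was the sole V segment highest in Young and supplied 28 of the 35 heavy V reads there. Ighv11-2 is known from the B-1 cells of mice, where it is often paired with Igkv14-126 in antibodies to phosphatidylcholine. Its ratio of Old over Young was 0.678 (0.267 to 1.53), so at this depth no difference between these libraries was detectable. Igkv14-126, the kappa segment of that pair, had 0.144 CPM (2 reads) in Old + Fumarate, 0.753 CPM (13 reads) in Old and 0.488 CPM (20 reads) in Young. It led the kappa V reads of Young, with 20 of 51. Bulk reads of separate segments do not show which chains are paired in a cell, and 38.6% of the 50-base words of Ighv11-2 occur in Ighv11-1.

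Among kappa segments, Igkv5-39 stood apart. It had 1.30 CPM (18 reads) in Old + Fumarate, 14.2 CPM (246 reads) in Old and 0.0244 CPM (1 read) in Young. It alone held 33.9% of the kappa V reads of Old and shares no 50-base word with another immunoglobulin gene. Igkv5-39 was 11.0-fold lower in Old + Fumarate than in Old (6.80 to 18.8). Igkv1-122 had 0.144 CPM (2 reads) in Old + Fumarate, 2.49 CPM (43 reads) in Old and 0 in Young. Igkv15-103 had 0.144 CPM (2 reads) in Old + Fumarate, 1.56 CPM (27 reads) in Old and 0.0488 CPM (2 reads) in Young. Both of these are listed through the reads of Old, unlike Igkv5-39, which had 19 reads outside it. Igkv1-110 differed less, with 0.722 CPM (10 reads) in Old + Fumarate, 1.33 CPM (23 reads) in Old and 0.0976 CPM (4 reads) in Young.

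Igkv10-96 and Igkv6-15 were highest in Old + Fumarate. Igkv10-96 had 3.17 CPM (43.9 reads) in Old + Fumarate, 2.06 CPM (35.5 reads) in Old and 0 in Young. Igkv6-15 had 1.44 CPM (20 reads) in Old + Fumarate, 0.463 CPM (8 reads) in Old and 0.0244 CPM (1 read) in Young. The ratio of Old + Fumarate over Old was 1.54 for Igkv10-96 (0.968 to 2.47) and 3.12 for Igkv6-15 (1.31 to 8.18). Igkv6-15 and Ighv5-17 were the 2 members whose interval lay above 1 in that comparison. Both reached the read minimum for listing only through the reads of Old + Fumarate, so their ratios favour that library. The intervals do not allow for that filter. The reads of Igkv10-96 are not whole in the aged libraries because some are shared with Igkv10-94. The other 2 segments higher in Old + Fumarate than in Old, chosen after their values were seen, were Ighv2-2 (8 reads in Old + Fumarate, 5 in Old) and Ighv1-18 (5 reads in Old + Fumarate, 6 in Old).

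Of the lambda V segments, Iglv1 had 0.577 CPM (8 reads) in Old + Fumarate, 4.23 CPM (73 reads) in Old and 0.2196 CPM (9 reads) in Young. Iglv2 had 0.0722 CPM (1 read) in Old + Fumarate, 0.405 CPM (7 reads) in Old and 0.0976 CPM (4 reads) in Young. Iglv1 led in every library, as is usual for mouse lambda chains. It was 7.32-fold lower in Old + Fumarate than in Old (3.53 to 17.6). The 38 segments not named had at most 9 reads in Old + Fumarate, 21 in Old and 6 in Young.

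**Figure D3:**
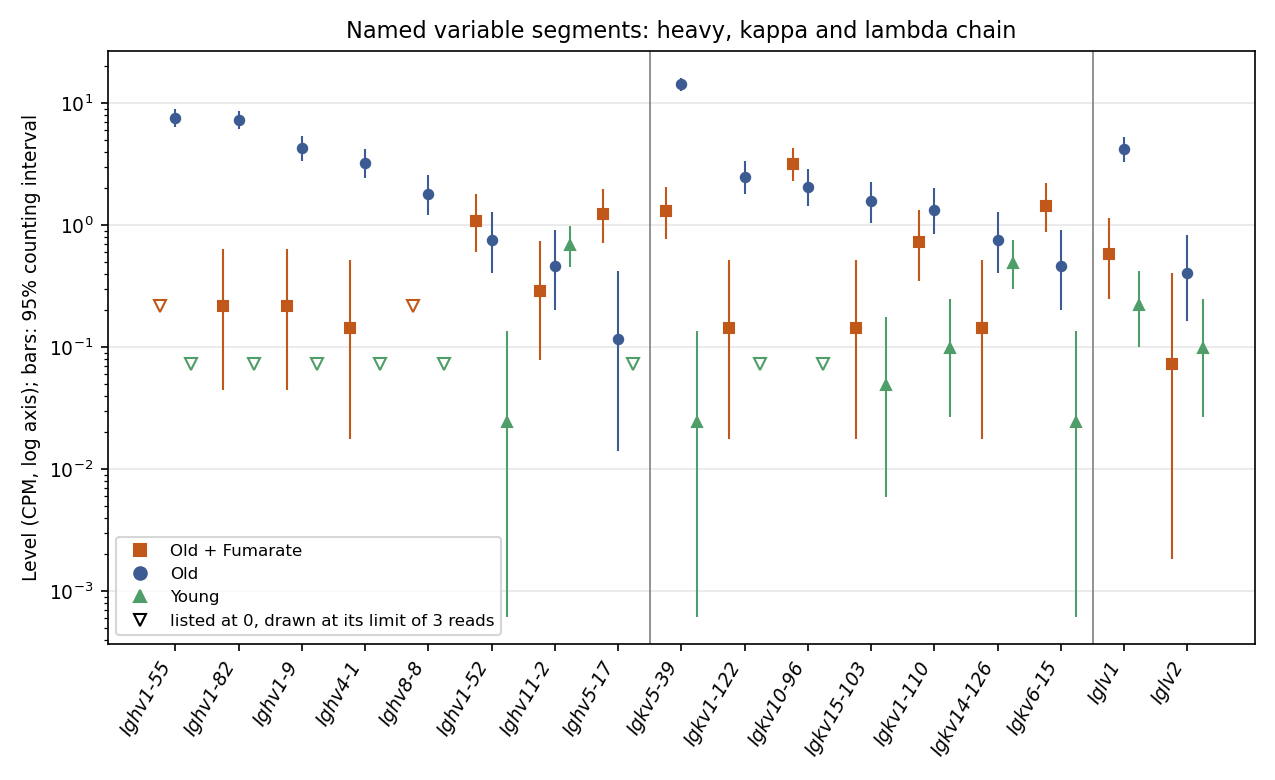
Level in CPM (log axis) of the 17 named V segments in Old + Fumarate, Old and Young, with heavy, kappa and lambda segments parted by grey lines. Points are single libraries, bars are 95% counting intervals, and open triangles mark a listed 0 at its limit of 3 reads. Old is highest for most segments, Old + Fumarate for Ighv1-52, Ighv5-17, Igkv10-96 and Igkv6-15, and Young for Ighv11-2.

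The leading segment took a different part of each library. In heavy chains it held 23.6% of V reads in Old + Fumarate (Ighv5-17), 20.3% in Old (Ighv1-55) and 80.0% in Young (Ighv11-2). In kappa chains it held 28.9% in Old + Fumarate (Igkv10-96), 33.9% in Old (Igkv5-39) and 39.2% in Young (Igkv14-126). The effective number of segments, the exponential of the Shannon entropy of their shares, was 10.1 in Old + Fumarate, 13.5 in Old and 2.25 in Young for heavy chains, and 12.5, 16.5 and 9.38 for kappa chains in the same libraries. To set the libraries at equal depth, the number of segments expected in 35 heavy V reads was 12.2 in Old + Fumarate, 13.5 in Old and 6 in Young. In 51 kappa V reads it was 16.5 in Old + Fumarate, 20.3 in Old and 17 in Young. These numbers cover the segments listed, and most of those reached the table through the reads of Old, so neither the wider range of Old nor the narrower range of Young can be read apart from that filter.

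Other transcripts of B cells and plasma cells were set beside the immunoglobulin genes. The 16 listed of 18 B cell markers summed to 53.7 CPM in Old + Fumarate, 83.1 CPM in Old and 38.3 CPM in Young. Most of the excess in Old came from Cd24a, a surface protein also made by other blood cells, which had 19.4 CPM in Old + Fumarate, 49.7 CPM in Old and 17.6 CPM in Young. The other 15 summed to 34.3 CPM in Old + Fumarate, 33.4 CPM in Old and 20.7 CPM in Young. The aged libraries were thus alike in the sum, while single genes differed both ways. Ebf1 was higher in Old + Fumarate (9.31 CPM) than in Old (5.91 CPM), and Cd79b was lower. In Old against Young 2 of 16 were higher and 0 lower (8.96% and 1.71% of all genes), in Old + Fumarate against Old 0 were higher and 2 lower (0.258% and 5.87%), and in Old + Fumarate against Young 2 were higher and 0 lower (3.99% and 1.95%), counts of 2 that say little beside those shares. None of the 16 listed was at 0 in any library. Cd79a had 1.44 CPM in Old + Fumarate, 1.10 CPM in Old and 0.683 CPM in Young. It encodes a signalling chain of the B cell receptor. Its level in Old + Fumarate was 1.31 times that in Old, from 20 and 19 reads, with counting intervals that overlap. Cd79b had 1.37 CPM in Old + Fumarate, 4.63 CPM in Old and 1.88 CPM in Young.

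Several plasma cell markers are also expressed by activated T cells, and the summed list was alike, at 1610 CPM in Old + Fumarate, 1664 CPM in Old and 1834 CPM in Young for 17 listed of 18. In Old against Young 5 were higher and 0 lower, against 8.96% and 1.71% of all genes. In Old + Fumarate against Old 0 were higher and 3 lower (0.258% and 5.87% of all genes). In Old + Fumarate against Young 3 were higher and 1 lower (3.99% and 1.95%). Jchain, which joins the chains of polymeric IgM and IgA, had 2.60 CPM in Old + Fumarate, 12.4 CPM in Old and 0.561 CPM in Young, the order of the gamma genes. Fkbp11, a chaperone of secretory cells, had 2.31 CPM in Old + Fumarate, 5.91 CPM in Old and 0.537 CPM in Young. Prdm1, a regulator of both plasma cells and effector T cells, had 17.5 CPM in Old + Fumarate, 23.9 CPM in Old and 2.46 CPM in Young. Other markers of the list had another order. Irf4, a factor of plasma cells and activated T cells, had 435 CPM in Old + Fumarate, 419 CPM in Old and 696 CPM in Young. Pim2, a survival kinase, had 190.1 CPM in Old + Fumarate, 206 CPM in Old and 358 CPM in Young, and Sdc1, the plasma cell surface marker CD138, had 1.08 CPM, 3.42 CPM and 3.73 CPM in the same libraries. Eaf2 had 0.577 CPM in Old + Fumarate, 0.232 CPM in Old and 0.659 CPM in Young. The part of B cells or plasma cells in the immunoglobulin levels was not tested.

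The T cell receptor genes, which share the architecture of the immunoglobulin loci, did not follow them. The 129 T cell receptor rows summed to 911 CPM in Old + Fumarate, 785 CPM in Old and 988 CPM in Young. In Old against Young 1 was higher and 2 lower (8.96% and 1.71% of all genes). In Old + Fumarate 1 was higher and 1 lower against Old (0.258% and 5.87%), and the same against Young (3.99% and 1.95%). Only 64, 27 and 64 of the 129 rows had at least 50 reads over the libraries compared, in the same order. Many low rows could therefore hardly be counted. For 100 T cell receptor reads there were 13.2 immunoglobulin reads in Old + Fumarate (12.5 to 13.9), 70.0 in Old (68.1 to 71.8) and 14.6 in Young (14.2 to 15.0). None of the 18 T cell identity genes passed the 2-fold limit in any of the 3 comparisons, and they summed to 5527 CPM in Old + Fumarate, 4516 CPM in Old and 5142 CPM in Young.

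**Figure D4:**
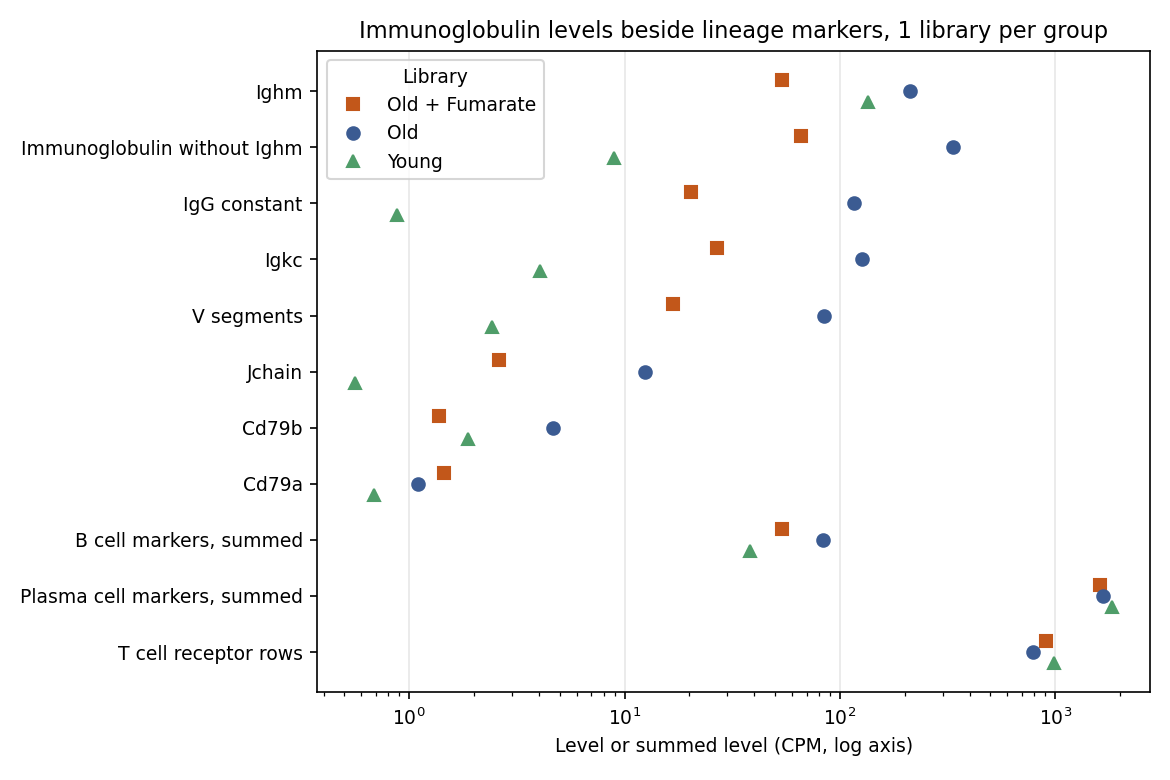
Levels or summed levels in CPM (log axis) of immunoglobulin groups, of single B cell and plasma cell genes and of marker lists in Old + Fumarate, Old and Young, each point a single library. Old is highest for every immunoglobulin group, Jchain, Cd79b and the summed B cell markers, and Old + Fumarate for Cd79a. The summed plasma cell markers and T cell receptor rows lie close together.

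Summed basophil and mast cell, erythroid and platelet, and macrophage markers were highest in Old, as the summed immunoglobulin genes were. The sum of natural killer cell markers was not, although its members differed. The 10 basophil and mast cell markers summed to 83.2 CPM in Old + Fumarate, 456 CPM in Old and 5.59 CPM in Young, and the 10 erythroid and platelet markers to 174 CPM, 1327 CPM and 12.4 CPM in the same libraries. All 10 of each list were higher in Old than in Young, where 8.96% of all genes were. Of the 2 lists, 9 and 10 genes were lower in Old + Fumarate than in Old, against 5.87% of all genes. The 9 listed macrophage and monocyte markers summed to 6.93 CPM in Old + Fumarate, 51.8 CPM in Old and 16.4 CPM in Young. Of these 9, 5 were higher in Old than in Young and 6 lower in Old + Fumarate than in Old. The 8 listed natural killer cell markers summed to 362 CPM in Old + Fumarate, 319 CPM in Old and 156 CPM in Young. Most of that sum was Nkg7, with 200 CPM in Old + Fumarate, 194 CPM in Old and 99.7 CPM in Young. Klra8, Styk1 and Klre1 were highest in Old, and Nkg7, Gzma, Eomes, Klrd1 and Klrb1c in Old + Fumarate. Of the 8, 4 were higher in Old than in Young and 2 lower in Old + Fumarate than in Old. The part of any of these cell types in the immunoglobulin levels was not tested.

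Genes that make or read antibody were mixed. Of 14 listed class switching and mutation genes, 2 were higher in Old than in Young (Batf and Cd40), near the 8.96% of all genes, and none passed the limit between Old + Fumarate and Old. Of 12 listed antibody receptor and transport genes, 7 were higher in Old than in Young, against 8.96% of all genes. In Old + Fumarate 5 were lower than in Old, against 5.87%, and 6 were higher than in Young, against 3.99%. Fcmr and Fcgrt were highest in Old + Fumarate, and Fcer2a and Trim21 in Young. Fcer1a, the IgE-binding chain of the high-affinity receptor, had 4.84 CPM in Old + Fumarate, 34.2 CPM in Old and 0.0244 CPM in Young. Fcgr2b, the inhibitory IgG receptor, had 1.52 CPM in Old + Fumarate, 14.2 CPM in Old and 0.0488 CPM (2 reads) in Young. Fcer1a is also among the basophil markers above.

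Of the 11 factors known to act at immunoglobulin promoters and enhancers, 2 were higher and 1 lower in Old than in Young, 0 were higher and 1 lower in Old + Fumarate than in Old, and 2 were higher and 1 lower in Old + Fumarate than in Young. On 11 genes these counts are too small to set against the shares of all genes (8.96% and 1.71%, 0.258% and 5.87%, and 3.99% and 1.95% in the same order). Ebf1, a factor of B cell commitment, had 9.31 CPM in Old + Fumarate, 5.91 CPM in Old and 0.927 CPM in Young. Spi1, a factor of myeloid and B cells, had 2.24 CPM in Old + Fumarate, 23.6 CPM in Old and 0.171 CPM in Young. Ebf1 was thus highest in Old + Fumarate, unlike the constant genes, and Spi1 highest in Old. Of 10 genes tied to V(D)J recombination and the surrogate light chain, 4 were listed. The recombinase genes Rag1 and Rag2 were not listed, so the other values do not describe the recombinase. Erg had 0.577 CPM in Old + Fumarate, 7.76 CPM in Old and 0.0976 CPM in Young. Dntt, which adds bases at the joins, was listed at 0 in Old + Fumarate and had 0.116 CPM in Old and 2.34 CPM in Young. Hmgb1 and Hmgb2 stayed within the 2-fold limit in every comparison.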

How the data were processed

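RNA was sequenced from cultured spleen T cells, 1 library per group, from 500 ng of total RNA per the labels' protocols. STAR, Partek and the build mm10 are named in the submitters' processing notes. The deposited table gives CPM by the authors (each column sums to 1e+06), although it is named as counts. Estimated reads were whole, within 0.02 reads, for 57.9% of genes in Young to 68.1% in Old + Fumarate, so no count model was fitted. Libraries were compared on log2(CPM + 1), a pseudocount of 1 CPM, with a 2-fold limit. Counting intervals (95%: exact Poisson, Clopper-Pearson for shares, conditional binomial for ratios) use the estimated reads. Named genes were all constant genes, and per locus the 6 V segments highest by mean CPM, each library's highest, and the 3 highest and 3 lowest differences per comparison with at least 50 reads. The members and the 11 gene lists were chosen with earlier results of these data known. All 66 members had the same position in GENCODE M21, after the table's end was moved back by 1 base. Calculations used Python 3.11.15, numpy 2.4.6, pandas 2.3.3 and scipy 1.17.1, and were tested on simulated data. Depth, scaling, pseudocount, read minimum and fold limit were varied.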

Additional observations from a re-analysis of the deposited data

How the results depend on the processing

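No paired analysis was possible because each group has 1 library. The direction of each summed ratio was the same under every scaling, but leaving out Ighm put Old + Fumarate at 7.38 times Young, and V segments alone at 6.96 times, where the full sum was 0.834 times. The alternatives without Ighm, with V segments alone, with at least 10 reads outside the Old library, without the leading segment and, for B cell markers, without Cd24a were chosen after seeing the data. In Old over Young the summed ratio was 3.66 with TMM (trimmed mean of M values) scaling, 4.34 scaled to the T cell identity list, 37.6 without Ighm, 34.8 for V segments and 3.40 for members with 10 reads outside Old. In Old + Fumarate over Old it was 0.179 scaled to the T cell list, 0.196 without Ighm, 0.200 for V segments and 0.233 for members with 10 reads outside Old. In Old + Fumarate over Young it was 0.776 scaled to the T cell list, a scaling that moved the median of all genes by more than 0.1, to 0.19 in Old over Young and -0.27 in Old + Fumarate over Old.

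The count of members higher in Old than in Young was 54 with a pseudocount of 0.5 CPM, 8 with 5 CPM, 12 with at least 50 reads, 14 at a 3-fold limit and 11 among members with 10 reads outside Old. The count lower in Old + Fumarate than in Old was 39, 8, 12, 12 and 8 under the same 5 settings. Higher in that comparison were 1 under TMM scaling, 1 under median-of-ratios scaling and 2 with a pseudocount of 0.5 CPM. In Old + Fumarate over Young 3 were higher with a pseudocount of 5 CPM, 4 with at least 50 reads and 4 at the 3-fold limit, which left 0 lower.

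Per kb of exon, heavy constant shares were 6.83% (Ighg2b) and 16.9% (Ighg2c) in Old + Fumarate, and 68.6% (Ighm), 16.8% (Ighg2b), 7.66% (Ighg2c), 4.15% (Ighg1) and 1.85% (Ighg3) in Old. Thinned to the smallest library, Ighm took 98.1% in Young and the effective number of kappa segments there was 4.79. Over segments with at least 10 reads in a library, the effective number was 2.00 (heavy) and 3.47 (kappa) in Old + Fumarate, 11.7 (heavy) and 1 (lambda) in Old, and 1 (heavy) and 1 (kappa) in Young. Without the leading segment the kappa number was 15.1 in Old + Fumarate, 26.4 in Old and 13.2 in Young, and the heavy number in Young 4.71. Of the values of named genes under these settings, 574 moved by less than their counting interval, 14 by more, and none of those past the 2-fold limit changed direction. The cause of these shifts was not tested. No member is a pseudogene, so leaving pseudogenes out changed nothing. Depth limits the V segments most, since most had under 10 reads in Old + Fumarate and in Young.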
